A study of Arabidopsis thaliana with 12 samples.

Results

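The nuclear genes for the light-harvesting antenna, the photosystems and Rubisco were followed in seedlings of Arabidopsis thaliana treated with a nonpathogenic bacterium. The members were chosen by their AGI identifiers. There are 45 of them among the 27371 genes with an FPKM value, and all 45 passed the filter on low values, a mean of at least 1 FPKM, which 17158 genes passed. They comprised 4 LHCA genes, 14 LHCB genes, PSBS, 12 PSA genes, 9 PSB genes, 4 RBCS genes and RCA. The study compared the responses of an Atg3bp1 mutant and of WT plants to Pst hrcC-, a strain of Pseudomonas syringae pv. tomato DC3000 that lacks a working type III secretion system and therefore injects no effectors. RNA-seq was done on whole seedlings, 14 d old, of the Columbia-0 ecotype. They had been grown on diluted MS medium with 16 h of light at 21 °C, so roots and shoots went into the same RNA. The groups were Atg3bp1 hrcC, Atg3bp1 mock, WT hrcC and WT mock, with 3 libraries each, and the treated plants were collected at 24 h. The Atg3bp1 mutants of the study are T-DNA insertion lines in AT5G48650, and the study's text names the allele Atg3bp1-1 for the RNA-seq, while the labels give Atg3bp1 only.

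The values are FPKM, that is, fragments scaled to transcript length and to the mapped fragments of the library. Here each library was also divided by a factor that equalised its upper quartile, and FPKM below means these rescaled values. As read counts are not part of such values, the exact depth of each library is unknown, and the study gives only an approximate number of reads per sample. The labels do not say whether the 3 libraries of a group came from separate plants, although the study describes them as biological replicates. AtG3BP1 itself went against the labels. It had 18.9, 16.2 and 14.4 FPKM in the hrcC libraries labelled Atg3bp1, against 16.9, 13.5 and 12.6 FPKM in their mock libraries, and 0.355, 0.371 and 0.308 FPKM in the hrcC libraries labelled WT, against 0.388, 0.0162 and 0.192 FPKM in their mock libraries. The libraries are therefore called by their labels throughout, and every direction between genotypes given below is a direction between labels. The factors lay between 0.866 and 1.01 except in WT mock replicate 2, at 1.11, WT mock replicate 3, at 1.15, and WT hrcC replicate 1, which had the highest. Some of the results that move without these 3 libraries are given below with and without them. The 45 members together took 13.6% to 25.8% of the FPKM of a library. A single other gene, AT2G01021, took 31.6% in Atg3bp1 hrcC replicate 3, the library with the 13.6%. It took 20.3% in Atg3bp1 hrcC replicate 2 and 4.03% to 12.6% in the remaining libraries. The libraries of a group differed in a way that most members shared. In WT mock, replicate 1 was the highest of the 3 libraries for 39 of the 45 members. In WT hrcC, replicate 1 was the lowest for 35 members. In Atg3bp1 mock, replicate 3 was the highest for 39 members, and in Atg3bp1 hrcC, replicate 1 was the highest for 35.

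Photosystem II splits water and photosystem I reduces ferredoxin, and both are fed with excitation energy by chlorophyll-binding antenna proteins. LHCB proteins make up the antenna of photosystem II, with LHCB1, LHCB2 and LHCB3 in its mobile and bound trimers and LHCB4, LHCB5 and LHCB6 as monomers, while LHCA proteins make up the belt around photosystem I. Rubisco fixes CO2 with large subunits encoded in the plastid and small subunits encoded by the RBCS genes in the nucleus. Nuclear photosynthesis genes are known to be induced by light and by GLK transcription factors, and many of them are repressed when leaves perceive bacterial patterns. In bulk RNA of whole seedlings, fewer green cells and less RNA per green cell cannot be told apart.

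Some of these genes are near-identical copies, and the letters in which they differ are what allows reads to be assigned to them. The following stretch is shown for RBCS because the most negative log2 changes after hrcC belonged to these genes, although none of them was called under either label. It is a stretch of 100 coding bases from the genome and RefSeq annotation of TAIR10.1. Capitals mark the bases that differ from RBCS3B, 1 in RBCS2B, 2 in RBCS1B and 5 in RBCS1A. The positions span an intron in all 4 genes and are chr5:15377707-15377976, minus strand, for RBCS3B, chr5:15381409-15381648, minus strand, for RBCS2B, chr5:15384556-15384826, minus strand, for RBCS1B and chr1:25048668-25048903, minus strand, for RBCS1A.
RBCS3B: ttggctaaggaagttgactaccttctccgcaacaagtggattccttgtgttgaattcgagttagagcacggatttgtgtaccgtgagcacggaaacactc
RBCS2B: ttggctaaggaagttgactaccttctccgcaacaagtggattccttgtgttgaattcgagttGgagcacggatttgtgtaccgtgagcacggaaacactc
RBCS1B: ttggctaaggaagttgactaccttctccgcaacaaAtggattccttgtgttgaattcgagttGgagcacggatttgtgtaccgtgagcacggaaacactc
RBCS1A: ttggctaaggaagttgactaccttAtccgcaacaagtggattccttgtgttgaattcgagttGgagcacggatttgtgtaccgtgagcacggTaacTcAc

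The same is shown for LHCB1, the family with the highest summed FPKM. These are also 100 coding bases, the same part of each gene. Capitals mark the bases that differ from LHCB1.3, 4 in LHCB1.2, 6 in LHCB1.1 and 10 each in LHCB1.4 and LHCB1.5. All lie within a single exon, at chr1:10478311-10478410, plus strand, for LHCB1.3, chr1:10475553-10475652, minus strand, for LHCB1.1, chr1:10472907-10473006, minus strand, for LHCB1.2, chr2:14525055-14525154, plus strand, for LHCB1.4 and chr2:14523180-14523279, minus strand, for LHCB1.5.
LHCB1.3: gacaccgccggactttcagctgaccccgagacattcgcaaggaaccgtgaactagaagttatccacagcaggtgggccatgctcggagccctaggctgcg
LHCB1.1: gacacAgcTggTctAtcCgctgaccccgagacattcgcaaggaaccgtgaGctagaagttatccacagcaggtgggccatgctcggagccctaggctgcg
LHCB1.2: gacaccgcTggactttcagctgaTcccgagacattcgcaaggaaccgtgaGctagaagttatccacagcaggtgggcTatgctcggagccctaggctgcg
LHCB1.4: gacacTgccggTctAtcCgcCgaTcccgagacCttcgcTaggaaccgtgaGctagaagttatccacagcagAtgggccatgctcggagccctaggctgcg
LHCB1.5: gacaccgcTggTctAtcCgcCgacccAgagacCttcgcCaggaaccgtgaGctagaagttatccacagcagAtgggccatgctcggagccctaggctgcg

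Over the whole coding sequence, RBCS1B, RBCS2B and RBCS3B, which lie next to each other on chromosome 5, were 96.7% to 97.2% identical, while RBCS1A on chromosome 1 was 89.9% to 90.1% identical to them. LHCB1.1, LHCB1.2 and LHCB1.3 were 95.7% to 96.4% identical and LHCB2.1 and LHCB2.2 were 96.6% identical. Stretches of 100 bases, the length of the trimmed reads, were identical between transcripts of 9 members, in 1.51% to 12.4% of their windows. RBCS1B shared them with RBCS3B, LHCB1.1 with LHCB1.2 and LHCB1.3, LHCB1.4 with LHCB1.5, and LHCB2.1 with LHCB2.2. The other 36 members shared none. A single alignment was kept for each read upstream, so the split between copies that share stretches is uncertain, and sums over such families are given beside them.

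The members were among the most abundant transcripts of the seedlings. By mean FPKM over the 12 libraries, 15 members were among the 20 highest of all genes and 41 among the 100 highest. LHCB1.3 (AT1G29930), a subunit of the major antenna, led with a mean of 12833 FPKM, followed by RBCS1A (AT1G67090) with 9871 FPKM and LHCB1.1 (AT1G29920) with 7918 FPKM. The median member had 1386 FPKM. LHCB4.3 (AT2G40100), a copy of the CP29 gene, stood apart with 14.8 FPKM, and the next lowest member was PSAE2 (AT2G20260) with 263 FPKM. The median coefficient of variation of the 45 members was 13.7% in Atg3bp1 hrcC, 21.3% in Atg3bp1 mock, 22.5% in WT hrcC and 28.6% in WT mock.

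**Figure D1:**
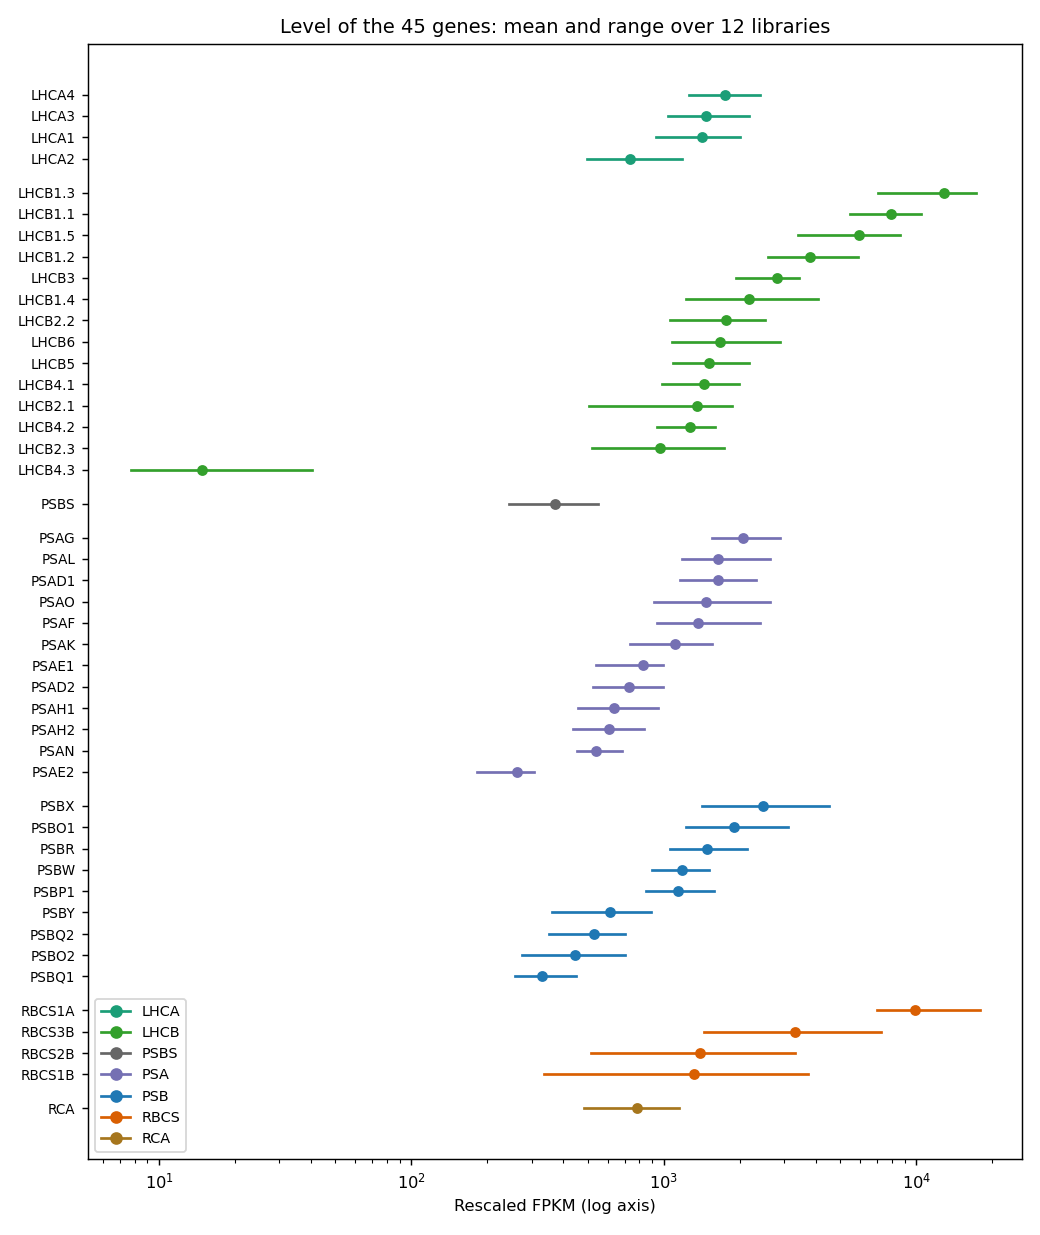
Mean rescaled FPKM of each of the 45 genes over 12 libraries (point) and the range from the lowest to the highest library (line), on a log axis, by sub-group. LHCB1.3 and RBCS1A are highest, and LHCB4.3 lies far below all others with a mean of 14.8 FPKM.

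The sub-groups differed in how their summed FPKM was spread over the groups. The RBCS sum was 12091, 10955 and 10040.2 FPKM in the libraries labelled Atg3bp1 hrcC, against 15849, 16109.9 and 17992 FPKM in those labelled Atg3bp1 mock. Under the label WT it was 9629, 14815 and 15932 FPKM after hrcC, against 32130.4, 19596 and 15430.1 FPKM after mock. The RBCS sum was thus lower in every hrcC library than in every mock library under the label Atg3bp1, whereas the ranges overlapped under the label WT. The LHCB sum averaged 47372 ± 7198 FPKM after hrcC and 46264 ± 12681 FPKM after mock under the label Atg3bp1, and 44254 ± 13106 FPKM after hrcC and 43866 ± 12871 FPKM after mock under the label WT (SD, n = 3 each). These means differed by less than the SD within any of the groups. For the LHCA sum, too, each difference between hrcC and mock or between the labels was smaller than the SDs of the groups compared, with 5332 ± 851 and 5043 ± 1479 FPKM in Atg3bp1 hrcC and mock, and 5411 ± 578 and 5679 ± 1179 FPKM in WT hrcC and mock.

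The photosystem cores lay in between. The PSA sum averaged 12326 ± 969.7 FPKM after hrcC and 11325 ± 1995 FPKM after mock under the label Atg3bp1, and 12659 ± 1665 FPKM after hrcC and 15211 ± 3297 FPKM after mock under the label WT. The PSB sum averaged 9460.1 ± 956 and 9603 ± 1702 FPKM in Atg3bp1 hrcC and mock, and 9636 ± 1775 and 11598 ± 3253 FPKM in WT hrcC and mock. For both, WT mock had the highest mean and also the highest SD.

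A ratio of sums within a library does not depend on how the libraries were scaled, and the ratio of the RBCS sum to the LHCB sum was looked at after the sums had been seen. It was 0.223, 0.228 and 0.252 in Atg3bp1 hrcC, against 0.349, 0.474 and 0.303 in Atg3bp1 mock, and 0.319, 0.264 and 0.343 in WT hrcC, against 0.547, 0.548 and 0.416 in WT mock. Under each label, every hrcC library lay below every mock library. After hrcC, the libraries labelled Atg3bp1 also lay below those labelled WT, while in mock the ranges overlapped. The ratio of the PSA sum to the LHCB sum did not separate hrcC from mock. It was 0.244, 0.260 and 0.283 in Atg3bp1 hrcC, against 0.264, 0.267 and 0.218 in Atg3bp1 mock, and 0.366, 0.223 and 0.310 in WT hrcC, against 0.321, 0.403 and 0.334 in WT mock. In mock, the 3 libraries labelled Atg3bp1 lay below the 3 labelled WT. This was not particular to PSA. The ratio of the PSB sum to the LHCB sum was at most 0.234 in Atg3bp1 mock and at least 0.246 in WT mock. For the LHCA sum to the LHCB sum the limits were 0.114 and 0.118. The share of LHCB in the summed FPKM of the members separated the other way. It was at least 47.1% in Atg3bp1 mock and at most 45.9% in WT mock. The ratios and the share all contain the LHCB sum, so they are not separate observations. They are given as descriptions, with no test.

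**Figure D2:**
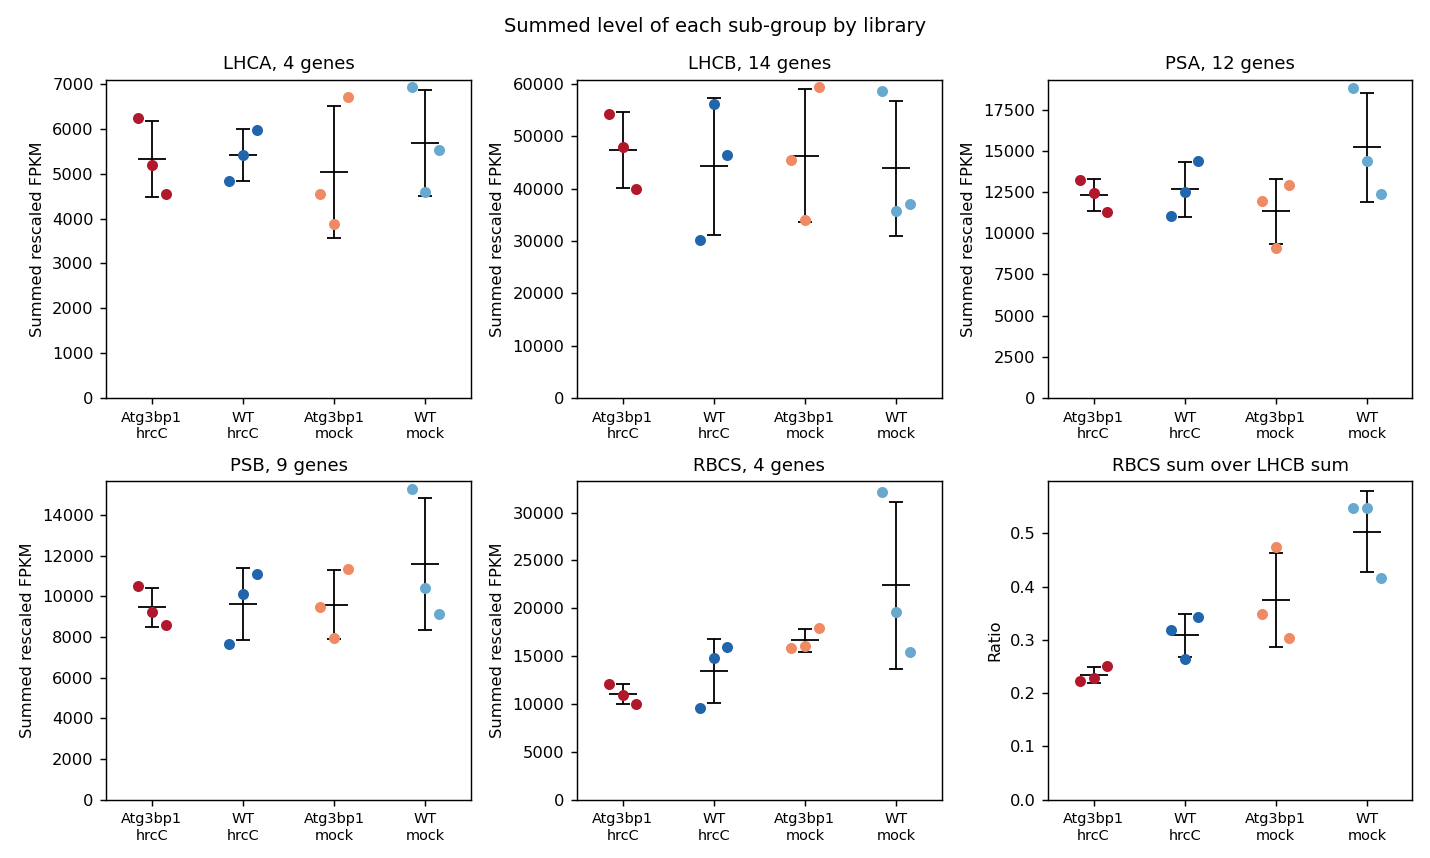
Summed rescaled FPKM of the LHCA, LHCB, PSA, PSB and RBCS genes, and the ratio of the RBCS sum to the LHCB sum, in each library (points) with mean and SD of the 3 libraries of a group (bars). Under each label, the ratio is lower in all 3 hrcC libraries than in all 3 mock libraries, from 0.223 to 0.252 against 0.303 to 0.474 for Atg3bp1 and from 0.264 to 0.343 against 0.416 to 0.548 for WT.

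The response to hrcC asks which members changed when the plants met the bacterium. The RBCS genes, which encode the small subunit of Rubisco, included the most negative log2 changes under both labels, RBCS1B (AT5G38430) and RBCS3B (AT5G38410), and all 4 had values below 0 under each. None of the 45 members passed the test under either label, which required 2-fold or more together with an adjusted p in limma no higher than 0.05. Of all tested genes, 2.57% were called higher and 0.554% lower under the label Atg3bp1, and 2.87% higher and 0.321% lower under the label WT. At an unadjusted p of at most 0.05, the same members, RBCS1B and RBCS3B, were lower under each label and none was higher, beside 7.96% of all genes lower and 7.13% higher under the label Atg3bp1, and 8.59% lower and 9.08% higher under the label WT. Both were lower by 2-fold or more, as were 1.25% of all genes at this p under the label Atg3bp1 and 0.997% under the label WT.

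RBCS3B had 1673, 2625 and 1438 FPKM in the hrcC libraries labelled Atg3bp1, against 3961, 3251 and 3969 FPKM in their mock libraries, and 1494, 2436 and 3457 FPKM in the hrcC libraries labelled WT, against 7226, 4406 and 3751 FPKM in their mock libraries. The hrcC and mock libraries did not overlap under either label. Its log2 change was -1.01 ± 0.34 (SE, 95% interval -1.74 to -0.27, adjusted p = 0.151) under the label Atg3bp1 and -1.08 ± 0.34 (SE, 95% interval -1.81 to -0.35, adjusted p = 0.108) under the label WT. With both labels averaged in the same fit, a comparison added after the values had been seen, it was -1.04 ± 0.24 (SE, 95% interval -1.56 to -0.53, adjusted p = 0.0155). RBCS3B was the only member called in that comparison, in which 0.705% of all genes were called lower and 3.28% higher. At an unadjusted p no higher than 0.05, 6 members were lower, the 4 RBCS genes, LHCB4.3 and PSBS (AT1G44575), and none was higher, beside 13% and 10.1% of all genes. Of these RBCS1B and RBCS3B reached 2-fold, as 0.81% of all genes did. The call was lost without WT mock replicate 1, WT hrcC replicate 1 or Atg3bp1 hrcC replicate 3, since the change then fell under 2-fold, at -0.91, -0.88 and -0.95. Median-ratio scaling and removal of a trend of the change with transcript length gave -0.98 each, also under 2-fold, and with no filter on low values the adjusted p was 0.0704.

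RBCS1B, its neighbour on chromosome 5, had 895, 336 and 488 FPKM in the hrcC libraries labelled Atg3bp1, against 1220.5, 1479.6 and 1046 FPKM in their mock libraries, and 406, 1302 and 1549.9 FPKM in the hrcC libraries labelled WT, against 3717, 1733 and 1635 FPKM in their mock libraries. These libraries did not overlap between hrcC and mock under either label. The log2 change was -1.23 ± 0.50 (SE, 95% interval -2.32 to -0.13, adjusted p = 0.262) under the label Atg3bp1, -1.23 ± 0.50 (SE, 95% interval -2.32 to -0.13, adjusted p = 0.227) under the label WT and -1.23 (adjusted p = 0.0508) on average. RBCS2B (AT5G38420) had 1163, 807 and 512 FPKM in the hrcC libraries labelled Atg3bp1, against 1111, 1305 and 1365 FPKM in their mock libraries, and 762, 1604 and 1678 FPKM in the hrcC libraries labelled WT, against 3300.4, 1364 and 1656 FPKM in their mock libraries. Here the ranges of hrcC and mock overlapped under both labels, and the change was -0.68 ± 0.40 (SE, 95% interval -1.54 to 0.18, adjusted p = 0.479) and -0.62 ± 0.40 (SE, 95% interval -1.48 to 0.24, adjusted p = 0.462), again with Atg3bp1 given before WT. As reads of RBCS1B and RBCS3B can be exchanged, the sum of RBCS1B, RBCS2B and RBCS3B was also fitted. It changed by -0.94 ± 0.35 (SE, adjusted p = 0.201) under the label Atg3bp1, by -0.99 ± 0.35 (adjusted p = 0.154) under the label WT and by -0.97 ± 0.25 (adjusted p = 0.0273) on average, which is below the 2-fold threshold.

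RBCS1A, the most abundant of the 4, had 8361, 7188 and 7602 FPKM in the hrcC libraries labelled Atg3bp1, against 9557, 10074 and 11612 FPKM in their mock libraries, and 6967, 9474 and 9248 FPKM in the hrcC libraries labelled WT, against 17887, 12092 and 8388 FPKM in their mock libraries. It was lower after hrcC in all 3 libraries than in any mock library under the label Atg3bp1 and overlapped under the label WT, where WT mock replicate 1 was far above the others. The change was -0.43 ± 0.25 (SE, 95% interval -0.98 to 0.12, adjusted p = 0.482) under the label Atg3bp1 and -0.52 ± 0.25 (SE, 95% interval -1.07 to 0.02, adjusted p = 0.307) under the label WT. RBCS1A made up 70.2 ± 5.13% of the RBCS sum in Atg3bp1 hrcC and 62.5 ± 2.12% in Atg3bp1 mock, and 64.8 ± 7.19% in WT hrcC and 57.2 ± 3.92% in WT mock. RCA (AT2G39730) encodes Rubisco activase, which removes sugar phosphates from the active site. It had 829.6, 704 and 507 FPKM in the hrcC libraries labelled Atg3bp1, against 853, 829 and 1152 FPKM in their mock libraries, and 484, 759 and 853 FPKM in the hrcC libraries labelled WT, against 1043, 588 and 771 FPKM in their mock libraries. The ranges overlapped under both labels, and the change was -0.49 ± 0.28 (SE, 95% interval -1.11 to 0.13, adjusted p = 0.485) and -0.20 ± 0.28 (SE, 95% interval -0.82 to 0.42, adjusted p = 0.778) for Atg3bp1 and WT.

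**Figure D3:**
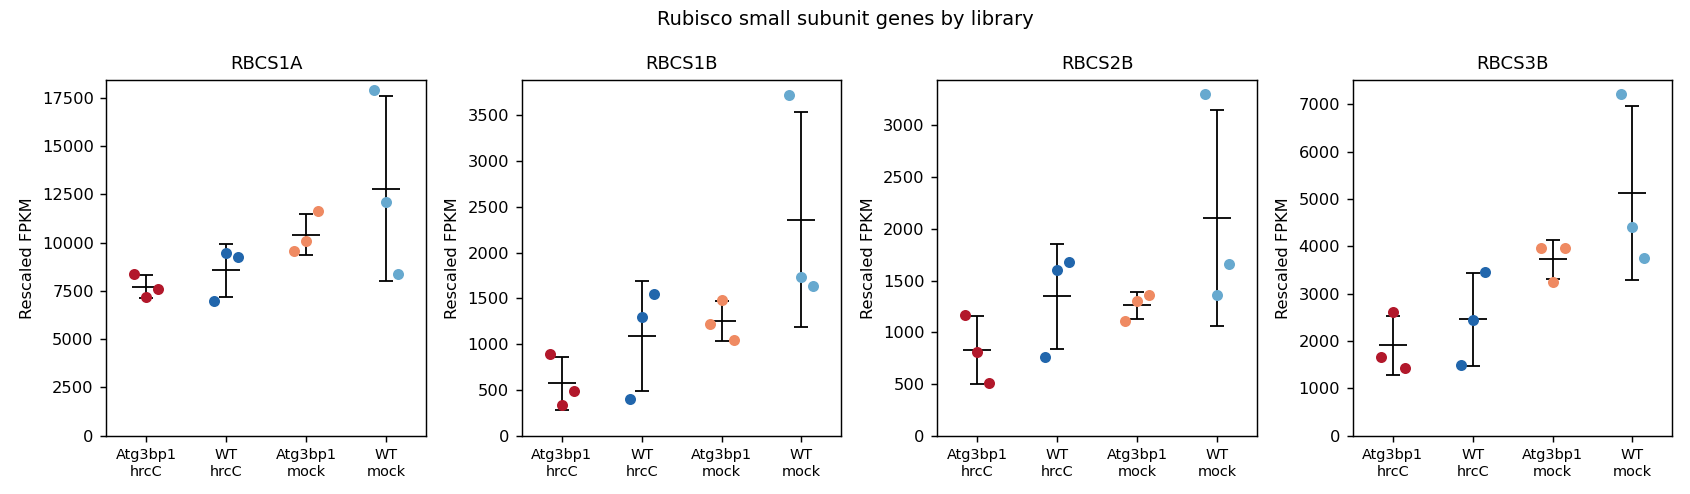
Rescaled FPKM of the 4 Rubisco small subunit genes in each library (points), with mean and SD of the 3 libraries of a group (bars). In RBCS1B and RBCS3B all 3 hrcC libraries lie below all 3 mock libraries under each label, and WT mock replicate 1 is the highest library for all 4 genes.

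The antenna genes did not share this position. Over the 14 LHCB genes the median log2 change was 0.04 under the label Atg3bp1, with 9 above 0 and 5 below, and -0.02 under the label WT, with 7 above and 7 below. Without Atg3bp1 mock replicate 2 the Atg3bp1 medians were -0.11 for LHCB, with 12 of 14 below 0, and -0.06 for LHCA, with all 4 below 0. Over all 17158 genes the medians were -0.07 and -0.06. The 4 LHCA genes had medians of 0.12 and -0.08, and the 4 RBCS genes of -0.84 and -0.85, in the same order of labels. For 12 of the 14 LHCB genes under the label Atg3bp1 and 11 under the label WT, the 95% interval excluded a 2-fold change in either direction, as it did for all 4 LHCA genes under both labels. LHCB1.3 had 15597, 13846 and 10672 FPKM in the hrcC libraries labelled Atg3bp1, against 13936, 9885 and 17303 FPKM in their mock libraries, and 7085, 16718 and 12525 FPKM in the hrcC libraries labelled WT, against 16285, 10128 and 10016 FPKM in their mock libraries. The ranges overlapped widely, and its change was -0.02 ± 0.33 (SE, 95% interval -0.73 to 0.70, adjusted p = 0.993) and -0.05 ± 0.33 (SE, 95% interval -0.77 to 0.67, adjusted p = 0.959) for Atg3bp1 and WT. The sum of the 5 LHCB1 genes changed by 0.05 ± 0.31 (SE, adjusted p = 0.973) and 0.00 ± 0.31 (adjusted p = 1).

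The largest positive changes under the label WT belonged to LHCB2.1 (AT2G05100), LHCB1.4 (AT2G34430) and LHCB2.2 (AT2G05070), all subunits of the major trimers. LHCB2.1 had 1269.6, 1183 and 1722 FPKM in the hrcC libraries labelled WT, against 1461, 504 and 1179.9 FPKM in the mock libraries, a change of 0.52 ± 0.35 (SE, 95% interval -0.24 to 1.29, adjusted p = 0.489). Without WT mock replicate 2, the lowest library, the change was 0.06, and without the 3 libraries with high factors it was -0.034. Under the label Atg3bp1 it had 1853, 1150.4 and 1418 FPKM after hrcC, against 1426, 1248 and 1864 FPKM after mock, and a change of -0.04. LHCB2.2 had 2188, 1358 and 1789.8 FPKM in the hrcC libraries labelled Atg3bp1, against 1891, 1366 and 1983 FPKM in their mock libraries, and 1263, 1790.4 and 2514 FPKM in the hrcC libraries labelled WT, against 2516, 1056 and 1463 FPKM in their mock libraries. All ranges overlapped, and the changes were 0.02 for Atg3bp1 and 0.18 for WT, where it was -0.25 without those 3 libraries and -0.10 without WT mock replicate 2. LHCB4.3 had the lowest change of the LHCB genes under both labels, with 9.69, 10.9 and 8.41 FPKM in the hrcC libraries labelled Atg3bp1, against 21.3, 16.7 and 14.3 FPKM in their mock libraries, and 7.72, 14.9 and 10.9 FPKM in the hrcC libraries labelled WT, against 40.5, 11.5 and 10.2 FPKM in their mock libraries. The libraries did not overlap under the label Atg3bp1, and the changes were -0.78 ± 0.41 (SE, 95% interval -1.67 to 0.12, adjusted p = 0.426) and -0.61 ± 0.41 (SE, 95% interval -1.50 to 0.29, adjusted p = 0.496). Without WT mock replicate 1 the change under the label WT was 0.00.

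For the photosystem genes the medians lay on different sides of 0 under the 2 labels, and they moved with single libraries. Of the 12 PSA genes, 11 were above 0 under the label Atg3bp1, with a median log2 change of 0.16, and 11 were below 0 under the label WT, with a median of -0.17. Of the 9 PSB genes, 5 were above 0 under the label Atg3bp1, with a median of 0.07, and 8 were below 0 under the label WT, with a median of -0.21. None of these genes passed the test, nor did their interaction. Without Atg3bp1 mock replicate 2, the lowest of its group for 39 of the 45 members, the Atg3bp1 medians were 0.02 for PSA, with 6 of 12 above 0, -0.05 for PSB, with 7 of 9 below 0, and -0.10 for all members, with 35 of 45 below 0. The 3 libraries with high factors are all labelled WT, and without them the change of RBCS3B under the label Atg3bp1 stayed at -1.01. The WT medians depended on WT mock replicate 1, without which they were -0.03 for PSA, -0.01 for PSB and 0.18 for LHCB, while the RBCS median was -0.53.

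PSAG (AT1G55670), a small subunit of photosystem I at the LHCA side and the most abundant PSA transcript, had 2145, 1795 and 1793 FPKM in the hrcC libraries labelled Atg3bp1, against 1867, 1551 and 2364 FPKM in their mock libraries, and 1669, 1989.8 and 2061 FPKM in the hrcC libraries labelled WT, against 2885, 2565 and 1967 FPKM in their mock libraries. Its changes were 0.00 ± 0.21 (SE, 95% interval -0.45 to 0.46, adjusted p = 0.998) and -0.36 ± 0.21 (SE, 95% interval -0.82 to 0.10, adjusted p = 0.413) for Atg3bp1 and WT. PSBX (AT2G06520), a small membrane subunit and the most abundant PSB transcript, had 2611, 2183 and 2034 FPKM in the hrcC libraries labelled Atg3bp1, against 2668, 2057 and 3086 FPKM in their mock libraries, and 1423, 2603 and 2320.2 FPKM in the hrcC libraries labelled WT, against 4508, 2308 and 1796 FPKM in their mock libraries. Both genes overlapped between hrcC and mock under each label, and PSBX changed by -0.18 and -0.37. The largest positive changes under the label Atg3bp1 belonged to PSBQ2 (AT4G05180), LHCB2.3 (AT3G27690) and PSAD2 (AT1G03130). PSBQ2, an extrinsic subunit of the oxygen-evolving complex, had 699, 493 and 531 FPKM in the hrcC libraries labelled Atg3bp1, against 389.8, 352 and 549 FPKM in their mock libraries, and 579.8, 520.0 and 665 FPKM in the hrcC libraries labelled WT, against 470.3, 495 and 592 FPKM in their mock libraries. Its change was 0.43 ± 0.22 (SE, 95% interval -0.04 to 0.89, adjusted p = 0.393) under the label Atg3bp1 and 0.18 under the label WT, with overlapping ranges under both. PSAD2, which docks ferredoxin at photosystem I, had 988, 751 and 695 FPKM in the hrcC libraries labelled Atg3bp1, against 646, 525 and 764 FPKM in their mock libraries, and 654, 718 and 820.5 FPKM in the hrcC libraries labelled WT, against 909, 618 and 650.4 FPKM in their mock libraries. It too overlapped, with changes of 0.33 and 0.03.

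PSBS senses lumen acidity and switches on the dissipation of excess light energy. It had 286, 244 and 268 FPKM in the hrcC libraries labelled Atg3bp1, against 261, 348 and 418 FPKM in their mock libraries, and 388, 278 and 451 FPKM in the hrcC libraries labelled WT, against 477, 478 and 549 FPKM in their mock libraries. Under the label WT the hrcC libraries lay below the mock libraries, with a change of -0.45 ± 0.22 (SE, 95% interval -0.94 to 0.03, adjusted p = 0.318), and under the label Atg3bp1 they overlapped, with a change of -0.34 ± 0.22 (SE, 95% interval -0.82 to 0.14, adjusted p = 0.542). Counted over all members, 4 were lower without overlap under the label Atg3bp1, namely LHCB4.3, RBCS1A, RBCS1B and RBCS3B, beside 17.5% of all genes. Under the label WT there were also 4, LHCB5 (AT4G10340), PSBS, RBCS1B and RBCS3B, beside 8.7% of all genes. None was higher without overlap, beside 11.7% and 8.54% of all genes.

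**Figure D4:**
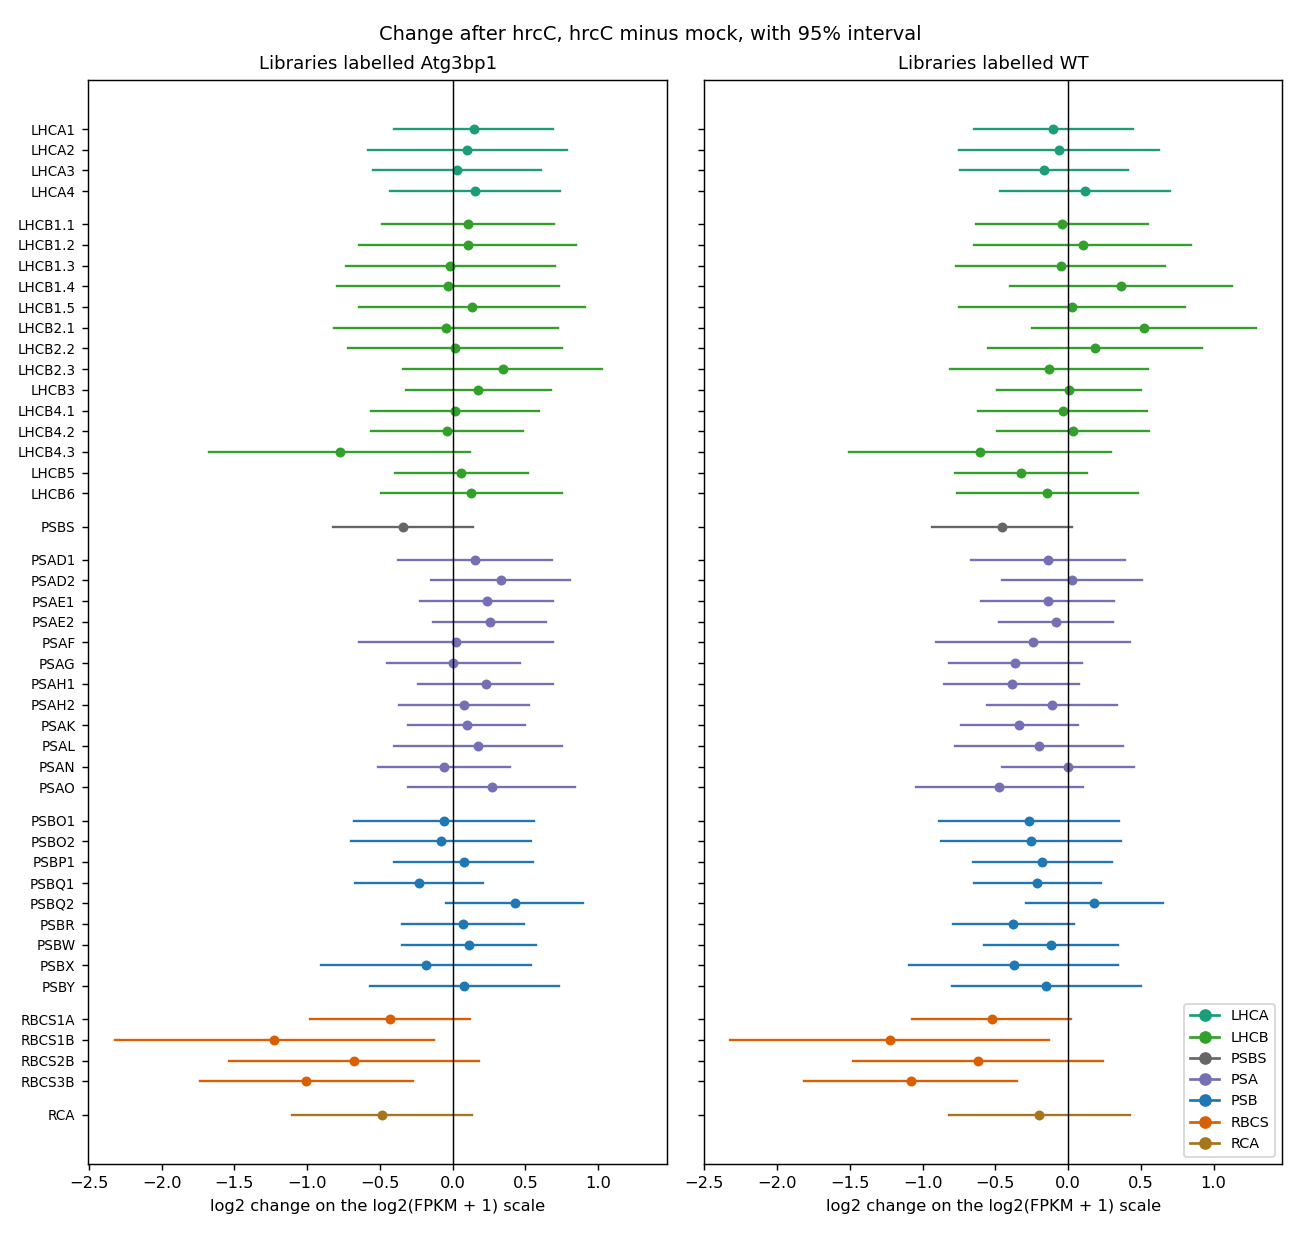
Log2 change after hrcC, hrcC minus mock, of each member (point) with its 95% interval (line), for the libraries labelled Atg3bp1 on the left and WT on the right. RBCS1B and RBCS3B are the only members whose interval lies below 0 in both panels, and most other intervals lie within 1 on either side of 0.

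The comparison of the labels asks how the members differed between Atg3bp1 and WT plants before and after the treatment. Because AtG3BP1 was high in the libraries labelled Atg3bp1, these are directions between labels. In mock, none of the 45 members passed the test in limma, where 0.0583% of all genes were called lower and 0.921% higher. At an unadjusted p of at most 0.05, 8 members were lower and 1 was higher in the libraries labelled Atg3bp1, that is 5 PSA genes, PSBR (AT1G79040), PSBS, LHCB2.3 and, higher, LHCB1.4, beside 9.34% of all genes lower and 11.8% higher. The median log2 difference was -0.40 over the PSA genes, -0.25 over the PSB genes, -0.52 over the RBCS genes, -0.11 over the LHCA genes and 0.02 over the LHCB genes, beside -0.02 over all genes. Of the 12 PSA genes 11 were lower, and of the 14 LHCB genes 6 were lower and 8 higher. Without WT mock replicate 1, the medians were -0.26 for PSA, -0.01 for PSB, -0.20 for RBCS and 0.25 for LHCB. Without the 3 libraries with high factors, WT mock is represented by replicate 1 alone, the highest of its group for 39 of the 45 members, and that fit assumes that this lone library varies like the other groups. That fit is therefore no support for a difference. In it LHCB1.5 (AT2G34420), which was above 0 with all libraries, lay at -0.50.

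PSAK (AT1G30380), a small membrane subunit on the side of the LHCA belt, had the smallest adjusted p, with 995, 737 and 956 FPKM in the mock libraries labelled Atg3bp1, against 1555, 1521 and 1225 FPKM in those labelled WT. The groups did not overlap, and the difference was -0.68 ± 0.18 (SE, 95% interval -1.08 to -0.28, adjusted p = 0.0805). PSAH1 (AT3G16140), part of the docking site of mobile LHCB trimers at photosystem I, had 587, 455 and 492 FPKM in the mock libraries labelled Atg3bp1, against 849.8, 950.3 and 633 FPKM in those labelled WT. It did not overlap either, at -0.65 ± 0.21 (SE, 95% interval -1.12 to -0.19, adjusted p = 0.117). PSAO (AT1G08380), which lies beside the same site, had 1484, 914 and 1161 FPKM in the mock libraries labelled Atg3bp1, against 2637, 1892 and 1301 FPKM in those labelled WT, and a difference of -0.68 ± 0.26 (SE, 95% interval -1.25 to -0.11, adjusted p = 0.168), although Atg3bp1 mock replicate 1 lay above WT mock replicate 3. Of the 3 pairs of libraries with the same number, it was lower under the label Atg3bp1 in all 3. Other members, PSBQ2 and RBCS2B among them, were so too, and the share of all genes was not determined. PSBS, with the values given above, had a difference of -0.57 ± 0.22 (SE, 95% interval -1.05 to -0.09, adjusted p = 0.17) without overlap. In all, 8 members were lower without overlap in mock, PSBS, PSAE1 (AT4G28750), PSAE2, PSAH1, PSAH2 (AT1G52230), PSAK, PSBR and RBCS1B, and none was higher, beside 12.3% of all genes lower and 15.4% higher.

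Within LHCB the differences in mock lay on both sides of 0, and none was called. LHCB1.4 had 2419, 1643 and 4097 FPKM in the mock libraries labelled Atg3bp1, against 1384, 1224 and 1832 FPKM in those labelled WT, with a difference of 0.80 ± 0.35 (SE, 95% interval 0.03 to 1.56, adjusted p = 0.22). The ranges overlapped, since Atg3bp1 mock replicate 2 lay below WT mock replicate 3. Without Atg3bp1 mock replicate 3 the difference was 0.45. Of the 3 pairs of libraries with the same number, LHCB1.4 was higher under the label Atg3bp1 in all 3. With so few pairs this is weak, and the share of all genes that were higher in all 3 was not determined. LHCB2.3 had 695, 519 and 909 FPKM in the mock libraries labelled Atg3bp1, against 1724, 1047 and 820.2 FPKM in those labelled WT, with a difference of -0.72 ± 0.31 (SE, 95% interval -1.40 to -0.04, adjusted p = 0.213) and overlapping ranges, and without WT mock replicate 1 it differed by -0.43. After hrcC it had 913, 912 and 806 FPKM in the hrcC libraries labelled Atg3bp1, against 706, 1241 and 1288 FPKM in those labelled WT. LHCB2.1 differed by 0.64 ± 0.35 (SE, 95% interval -0.12 to 1.41, adjusted p = 0.314) and LHCB1.5 by 0.29 ± 0.36 (SE, 95% interval -0.49 to 1.06, adjusted p = 0.677). LHCB1.5 had 6246, 4622 and 7756 FPKM in the mock libraries labelled Atg3bp1, against 8605, 4012 and 3584 FPKM in those labelled WT, so the libraries labelled Atg3bp1 lay inside the range of those labelled WT. Summed, the 5 LHCB1 genes differed by 0.16 ± 0.31 (SE, adjusted p = 0.792) and LHCB2.1 with LHCB2.2 by 0.34 ± 0.33 (adjusted p = 0.574).

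Root markers were set beside the same comparison, and none was called between the labels in mock. Of 16 root markers, 13 were higher on average in mock under the label Atg3bp1, and their summed FPKM was 79.1 to 107 in the mock libraries labelled Atg3bp1, against 56.1 to 62.7 in those labelled WT. Much of this lay in 2 genes, TIP2;3, with means of 27.3 against 12.1 FPKM, and CASP1, with 18.0 against 10.9 FPKM. TIP2;3, an aquaporin of roots, differed by 1.13 (adjusted p = 0.0736 in limma). None of the 16 was listed at 0 in all libraries, and 11 passed the filter. Of these 11, 3 were higher without overlap in mock and 0 lower, beside 15.4% and 12.3% of all genes. After hrcC the sums were 48.0 to 65.6 FPKM under the label Atg3bp1, against 42.9 to 65.1 FPKM under the label WT. Under the label Atg3bp1, 1 of the 16 was higher on average after hrcC than in mock, and 6 of 16 were under the label WT. The part of these in the values of the members was not tested.

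After hrcC, no member passed the test between the labels in limma, at an unadjusted p of at most 0.05 either, where 2.34% of all genes were lower and 3.08% higher. With adjustment and 2-fold, 0.00583% of all genes were called in each direction. The medians were -0.01 over PSA, -0.07 over PSB, 0.01 over LHCA, 0.00 over LHCB and -0.51 over RBCS. These medians moved with single libraries. Without WT hrcC replicate 1, 41 of the 45 members were lower under the label Atg3bp1, and the share of all genes lower there was not determined. The medians were then -0.17 for LHCB, -0.15 for LHCA, -0.18 for PSB and -0.86 for RBCS, beside -0.02 over all genes. Without Atg3bp1 hrcC replicate 3 or without WT hrcC replicate 3, the RBCS median was -0.27. For 39 of the 45 members the 95% interval excluded a 2-fold difference in either direction. PSAK was lower without overlap, with 878, 1017 and 960.3 FPKM in the hrcC libraries labelled Atg3bp1, against 1086, 1029 and 1289 FPKM in those labelled WT, and was the only such member, beside 6.01% of all genes, with none higher, beside 5.2%. Its difference was -0.25 ± 0.18 (SE, 95% interval -0.65 to 0.15, adjusted p = 0.953). RBCS1B and RBCS2B had the largest negative differences, -0.83 ± 0.50 (SE, 95% interval -1.92 to 0.27, adjusted p = 0.938) and -0.70 ± 0.40 (SE, 95% interval -1.56 to 0.16, adjusted p = 0.932), with overlapping ranges. LHCB1.4 had 3084, 2562 and 1923 FPKM in the hrcC libraries labelled Atg3bp1, against 1230.4, 2499 and 2156 FPKM in those labelled WT, and with LHCB1.5 and LHCB1.3 it had the largest positive differences, 0.40, 0.39 and 0.21 in that order. LHCB1.3 lay at -0.13 without WT hrcC replicate 1. LHCB1.5 had 7924, 6636 and 5605 FPKM in the hrcC libraries labelled Atg3bp1, against 3389, 7141 and 5418 FPKM in those labelled WT, which overlapped.

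**Figure D5:**
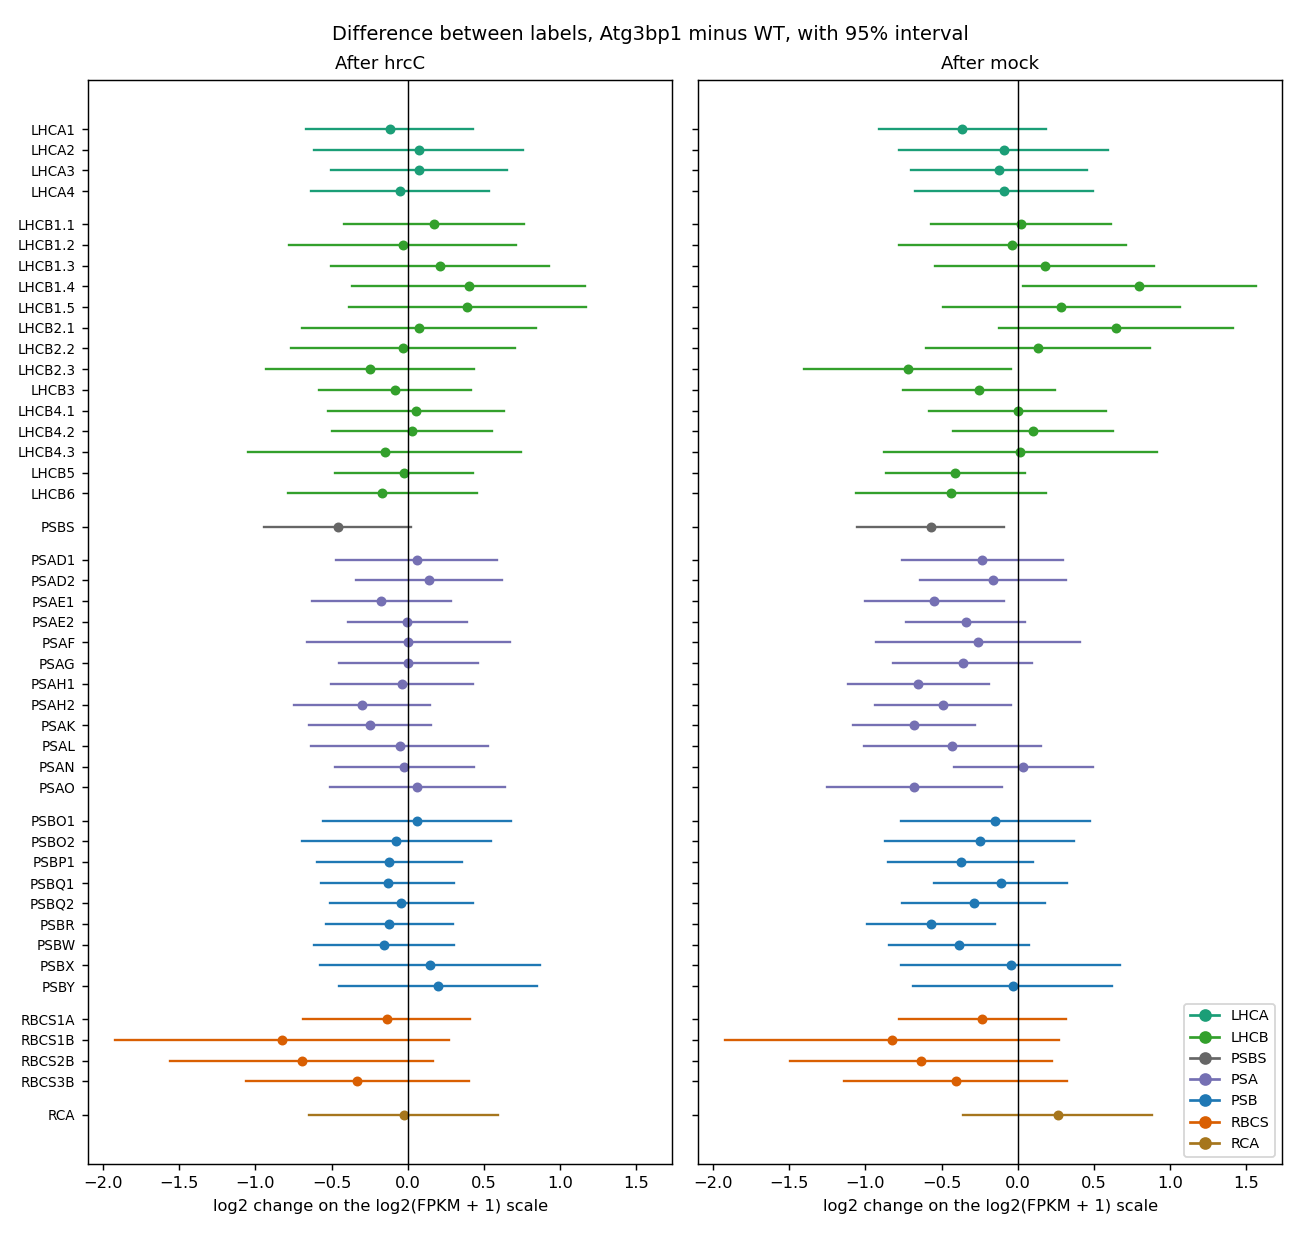
Log2 difference between the labels, Atg3bp1 minus WT, of each member (point) with its 95% interval (line), after hrcC on the left and after mock on the right. In mock most PSA and PSB points lie below 0 and LHCB1 points near or above it, and after hrcC all intervals include 0.

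With the labels compared over both conditions, an average added after the values had been seen, no member was called, beside 0.035% of all genes lower and 0.629% higher. At an unadjusted p of at most 0.05, 9 members were lower and LHCB1.4 was higher, beside 10.1% and 11.4% of all genes. RBCS1B and RBCS2B lay at -0.83 and -0.67. Without the 3 libraries with high factors they lay at -1.51 and -1.23. WT mock replicate 1 is again the only mock library labelled WT there, so these 2 values are no support for a difference. PSAK had -0.47 ± 0.13 (SE, 95% interval -0.75 to -0.18, adjusted p = 0.0787) and PSBS had -0.51 ± 0.16 (SE, 95% interval -0.86 to -0.17, adjusted p = 0.0929).

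The interaction asks whether the response to hrcC differed between the labels. No member passed the test, and none of all tested genes did (0%). At an unadjusted p of at most 0.05 no member passed, beside 1.44% of all genes in the positive and 2.96% in the negative direction. Of the 45 members, 35 had a positive interaction, meaning a higher log2 change under the label Atg3bp1, with a median of 0.19 beside 0.00 over all genes. The median was 0.35 over PSA, 0.23 over PSB, 0.18 over LHCA, 0.04 over LHCB and 0.04 over RBCS. Without WT mock replicate 1 the median over the members was -0.03, and 20 of 45 were positive. The largest values belonged to PSAO, 0.74 ± 0.37 (SE, 95% interval -0.07 to 1.55, adjusted p = 0.991), and PSAH1, 0.62 ± 0.30 (SE, 95% interval -0.04 to 1.27, adjusted p = 0.991). PSAO had 1275, 1561 and 1384 FPKM after hrcC under the label Atg3bp1, against 1484, 914 and 1161 FPKM after mock, and 1129.6, 1456 and 1473 FPKM after hrcC under the label WT, against 2637, 1892 and 1301 FPKM after mock. PSAH1 had 520.3, 637 and 638 FPKM after hrcC under the label Atg3bp1 and 531, 562 and 766 FPKM under the label WT. For the 4 RBCS genes the interaction lay between -0.06 and 0.09, but the 95% interval excluded a 2-fold difference in response for RBCS1A only. Without WT mock replicate 1 all 4 RBCS interactions were negative, with a median of -0.29.

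The remaining members are given by their group means, except LHCA4 (AT3G47470). LHCA4, the most abundant of the photosystem I antenna, had 2214, 1591 and 1537 FPKM in the hrcC libraries labelled Atg3bp1, against 1295, 1261 and 2411 FPKM in their mock libraries, and 1949, 1684 and 1845 FPKM in the hrcC libraries labelled WT, against 1561, 1417 and 2146 FPKM in their mock libraries, and its ranges overlapped in all comparisons. LHCA1 (AT3G54890) averaged 1359 and 1252 FPKM after hrcC and mock under the label Atg3bp1, and 1465 and 1601 FPKM under the label WT. LHCA2 (AT3G61470) averaged 743 and 702 FPKM after hrcC and mock under the label Atg3bp1, and 724 and 781 FPKM under the label WT. LHCA3 (AT1G61520) averaged 1449.5 and 1433 FPKM after hrcC and mock under the label Atg3bp1, and 1397 and 1588 FPKM under the label WT. The log2 changes of this belt after hrcC lay between 0.03 and 0.15 under the label Atg3bp1 and between -0.17 and 0.12 under the label WT.

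Of the trimer subunits, LHCB1.1 averaged 8358 and 7955 FPKM after hrcC and mock under the label Atg3bp1, and 7644 and 7714 FPKM under the label WT. LHCB1.2 (AT1G29910) averaged 3794 and 3597 FPKM after hrcC and mock under the label Atg3bp1, and 4064 and 3742 FPKM under the label WT. LHCB3 (AT5G54270), found in trimers bound to photosystem II, averaged 2783 and 2523 FPKM after hrcC and mock under the label Atg3bp1, and 2939 and 2938 FPKM under the label WT. For these genes no interval excluded 0 in the planned comparisons. LHCB4.1 (AT5G01530) and LHCB4.2 (AT3G08940) encode CP29, a monomer next to the core. LHCB4.1 averaged 1444 and 1441 FPKM after hrcC and mock under the label Atg3bp1, and 1431 and 1470.1 FPKM under the label WT. LHCB4.2 averaged 1278 and 1323 FPKM after hrcC and mock under the label Atg3bp1, and 1268 and 1227 FPKM under the label WT. These abundant copies lay near 0 in every comparison, with log2 values between -0.07 and 0.10, unlike LHCB4.3. LHCB5, which encodes CP26, averaged 1418 and 1385 FPKM after hrcC and mock under the label Atg3bp1, and 1440.4 and 1817 FPKM under the label WT. LHCB6 (AT1G15820), which encodes CP24, averaged 1542 and 1420.3 FPKM after hrcC and mock under the label Atg3bp1, and 1743 and 1989 FPKM under the label WT. Both were highest in WT mock, and LHCB5 was lower after hrcC without overlap under the label WT, at -0.32 ± 0.21 (SE, 95% interval -0.78 to 0.13, adjusted p = 0.467).

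On the stromal side of photosystem I, PSAD1 (AT4G02770) averaged 1678 and 1516 FPKM after hrcC and mock under the label Atg3bp1, and 1592 and 1789 FPKM under the label WT. PSAE1, which with the PSAD proteins takes part in the reduction of ferredoxin, averaged 779 and 675 FPKM after hrcC and mock under the label Atg3bp1, and 886 and 966 FPKM under the label WT. PSAE2 averaged 269 and 227 FPKM after hrcC and mock under the label Atg3bp1, and 269 and 285 FPKM under the label WT. Both PSAE genes were lower without overlap under the label Atg3bp1 in mock, at -0.55 and -0.34. On the lumenal side, PSAF (AT1G31330), which binds plastocyanin, averaged 1291 and 1282 FPKM after hrcC and mock under the label Atg3bp1, and 1303 and 1596 FPKM under the label WT. PSAN (AT5G64040), also lumenal, averaged 528 and 552 FPKM after hrcC and mock under the label Atg3bp1, and 536 and 532 FPKM under the label WT. PSAN was the only PSA gene above 0 between the labels in mock, at 0.04. PSAH2, the partner of PSAH1, averaged 533 and 507 FPKM after hrcC and mock under the label Atg3bp1, and 663 and 711 FPKM under the label WT. PSAL (AT4G12800), which binds PSAH, averaged 1569 and 1399 FPKM after hrcC and mock under the label Atg3bp1, and 1665 and 1944 FPKM under the label WT. PSAH2 differed between the labels in mock by -0.49 ± 0.20 (SE, 95% interval -0.93 to -0.04, adjusted p = 0.198) and PSAL by -0.43.

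In the oxygen-evolving complex, PSBO1 (AT5G66570), the stabiliser of the manganese cluster, averaged 1792 and 1882 FPKM after hrcC and mock under the label Atg3bp1, and 1759 and 2162 FPKM under the label WT. PSBO2 (AT3G50820), its less abundant copy, averaged 399.9 and 423 FPKM after hrcC and mock under the label Atg3bp1, and 437 and 517 FPKM under the label WT. PSBP1 (AT1G06680) averaged 1056 and 1019 FPKM after hrcC and mock under the label Atg3bp1, and 1152 and 1307 FPKM under the label WT. The lower level after hrcC under the label WT was of similar size in all 3, at -0.27, -0.26 and -0.18, and within the spread. PSBQ1 (AT4G21280) averaged 289.8 and 340.4 FPKM after hrcC and mock under the label Atg3bp1, and 319.9 and 370.3 FPKM under the label WT. PSBR, which is needed to hold PSBP, averaged 1327 and 1273 FPKM after hrcC and mock under the label Atg3bp1, and 1450.4 and 1879.9 FPKM under the label WT. PSBR differed between the labels in mock by -0.57 ± 0.19 (SE, 95% interval -0.99 to -0.15, adjusted p = 0.124), without overlap. Of the small membrane subunits, PSBW (AT2G30570) averaged 1108 and 1034 FPKM after hrcC and mock under the label Atg3bp1, and 1242 and 1334 FPKM under the label WT. PSBY (AT1G67740) averaged 636 and 598 FPKM after hrcC and mock under the label Atg3bp1, and 573 and 639 FPKM under the label WT. Neither had a 95% interval that excluded 0.

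Other genes of the pathway were set beside the members. Of the 15 Calvin-Benson cycle genes, none was called, with median log2 changes after hrcC of -0.33 under the label Atg3bp1 and -0.40 under the label WT, and 14 and 15 of 15 below 0. Of the 9 other antenna and photosystem genes none was called under either label, with medians of -0.10 under Atg3bp1 and -0.39 under WT. With the labels averaged, ELIP1 and ELIP2, which encode light-stress proteins of the antenna family, fell by 1.39 and 1.29 (adjusted p = 0.033 and 0.0286) and were called. ELIP2 had 60.2, 52.8 and 41.3 FPKM in the hrcC libraries labelled Atg3bp1, against 141, 162 and 81.8 FPKM in their mock libraries, and 21.8, 29.6 and 70.5 FPKM in the hrcC libraries labelled WT, against 165, 90.5 and 49.9 FPKM in their mock libraries. Its hrcC libraries lay below the mock libraries under the label Atg3bp1 and overlapped with them under the label WT. The 20 plastid-encoded genes had medians of 0.48 and 0.09 and none was called, although plastid transcripts mostly lack the poly(A) tail by which such libraries select mRNA. The 9 genes of electron carriers and ATP synthase had medians of -0.11 and -0.21, and the 13 of 14 chlorophyll synthesis genes that passed the filter had medians of -0.13 and -0.08, with no call in either list. In these pairs of medians Atg3bp1 stands before WT.

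Of the 5 chlorophyll breakdown genes, 2 were called higher under the label Atg3bp1 and 1 under the label WT, with median log2 changes of 0.49 and -0.02, in that order of labels. PPH, which removes phytol from pheophytin, rose under both labels, by 1.07 ± 0.22 (SE, 95% interval 0.59 to 1.55, adjusted p = 0.0161) under the label Atg3bp1 and 1.14 ± 0.22 (SE, 95% interval 0.66 to 1.62, adjusted p = 0.0107) under the label WT. It had 18.6, 16.7 and 16.3 FPKM in the hrcC libraries labelled Atg3bp1, against 10.3, 7.14 and 6.14 FPKM in their mock libraries, and 13.9, 19.8 and 22.9 FPKM in the hrcC libraries labelled WT, against 8.99, 6.44 and 8.38 FPKM in their mock libraries. PAO, which opens the chlorophyll ring, rose by 1.19 ± 0.24 (SE, 95% interval 0.66 to 1.72, adjusted p = 0.0146) under the label Atg3bp1, and had a change of 0.64 ± 0.24 (SE, 95% interval 0.12 to 1.17, adjusted p = 0.184) under the label WT. It had 20.9, 12.1 and 15.6 FPKM in the hrcC libraries labelled Atg3bp1, against 6.57, 5.33 and 7.30 FPKM in their mock libraries, and 11.5, 10.6 and 19.6 FPKM in the hrcC libraries labelled WT, against 8.70, 8.50 and 7.45 FPKM in their mock libraries, so that the hrcC libraries lay above the mock libraries under both labels. The other 3 of the 5 genes, SGR1, NYC1 and RCCR, were not called.

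Of the 8 regulators none was called with the 2-fold threshold. CGA1, a GATA factor that promotes chloroplast development, passed the adjusted p with a change of -0.75 ± 0.14 (SE, 95% interval -1.05 to -0.44, adjusted p = 0.00964) under the label Atg3bp1 and -0.58 ± 0.14 (SE, 95% interval -0.89 to -0.28, adjusted p = 0.0379) under the label WT. GLK1, an activator of antenna genes, had 26.3, 21.6 and 20.3 FPKM in the hrcC libraries labelled Atg3bp1, against 11.5, 10.8 and 16.4 FPKM in their mock libraries, and 20.9, 22.9 and 25.6 FPKM in the hrcC libraries labelled WT, against 32.9, 19.0 and 20.4 FPKM in their mock libraries. Under the label Atg3bp1 its hrcC libraries lay above its mock libraries, with a change of 0.79, the highest of the 8 regulators there. In that comparison 11.7% of all genes were higher without overlap. Under the label WT its hrcC and mock libraries overlapped. In mock it was lower in all libraries labelled Atg3bp1, at -0.83 ± 0.23 (SE, 95% interval -1.33 to -0.34, adjusted p = 0.0814), and after hrcC the ranges of the 2 labels overlapped. GLK2 had 22.3, 20.2 and 16.3 FPKM in the hrcC libraries labelled Atg3bp1, against 17.9, 16.1 and 19.4 FPKM in their mock libraries, and 16.1, 22.4 and 22.1 FPKM in the hrcC libraries labelled WT, against 18.6, 16.1 and 17.0 FPKM in their mock libraries, with no difference beyond the spread between libraries in any comparison, and a difference of 0.04 ± 0.18 (SE, 95% interval -0.34 to 0.43, adjusted p = 0.91) between the labels in mock.

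The 250 bases before the start of the first annotated isoform of each gene, in the RefSeq annotation of TAIR10.1, were searched on both strands for the G-box core CACGTG, the I-box core GATAAG and the motif CCAATC. For LHCA3, LHCB2.3, LHCB4.2 and PSAL a longer isoform starts further upstream, so that part of this window lies inside the annotated gene. This part is 178 bases for LHCA3, 119 for LHCB4.2, 65 for PSAL and 35 for LHCB2.3. No motif is contained in another. The G-box core was present before 9 of the 45 members (20%) and before 6.57% of 27443 nuclear protein-coding genes. The I-box core was present before 12 members (26.7%) and 12.4% of all genes. The third motif was present before 12 members (26.7%) and 10.2% of all genes. These were 3 of the 4 LHCA genes, 7 of the 14 LHCB genes, 1 of the 9 PSB genes and RCA. None of the 12 PSA and 4 RBCS genes had it. Beside 10.2% of all genes, its absence from so few genes does not set PSA or RBCS apart. A match is a match of letters only, and RBCS1A, RBCS1B and RBCS3B had none of the motifs in this window. The window ends where the annotated transcript begins, and the bases from there to the coding sequence were not searched. The sequences of RBCS2B, the RBCS gene with matches, of LHCB2.3, the antenna gene with the most negative difference between the labels in mock, and of PSAK, which had the smallest adjusted p there, are shown with the motifs in capitals. RBCS2B, at chr5:15382072-15382321, minus strand, held the G-box core in 1 place and the I-box core in 3. LHCB2.3, at chr3:10255691-10255940, plus strand, held the G-box core and the third motif in 1 place each. PSAK, at chr1:10721933-10722182, plus strand, held the I-box core in 1 place, on the opposite strand.
RBCS2B: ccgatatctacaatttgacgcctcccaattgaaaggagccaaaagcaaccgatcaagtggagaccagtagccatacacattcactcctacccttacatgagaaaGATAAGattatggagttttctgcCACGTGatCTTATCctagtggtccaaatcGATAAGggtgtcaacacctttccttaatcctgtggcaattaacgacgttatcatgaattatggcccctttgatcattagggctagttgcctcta
LHCB2.3: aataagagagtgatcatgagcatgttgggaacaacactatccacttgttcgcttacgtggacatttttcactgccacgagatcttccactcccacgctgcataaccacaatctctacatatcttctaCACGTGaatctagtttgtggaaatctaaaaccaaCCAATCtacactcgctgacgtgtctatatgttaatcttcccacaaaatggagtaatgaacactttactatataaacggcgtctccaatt
PSAK: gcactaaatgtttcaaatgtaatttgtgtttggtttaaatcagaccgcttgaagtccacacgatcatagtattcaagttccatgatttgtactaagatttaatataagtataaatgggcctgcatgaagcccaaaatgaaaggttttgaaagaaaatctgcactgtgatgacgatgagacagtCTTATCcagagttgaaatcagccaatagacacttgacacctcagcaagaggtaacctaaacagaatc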

How the data were processed

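The authors prepared stranded, poly(A)-selected libraries. Trimmomatic removed adapters and cut reads to 100 bases, TopHat placed each read at a single position of TAIR10, and Cufflinks gave the deposited FPKM. The deposited table holds FPKM for 27371 genes in 12 libraries. FPKM is normalized for library depth and transcript length, holds no counts and gives no depth, so no count model was used. Here the libraries were brought to a common upper quartile (75th percentile) over the 23870 genes with a value above 0. Genes were kept when their mean reached 1 FPKM, and these 17158 were fitted as log2(FPKM + 1) with limma 3.58.1 in R 4.3.3, with 4 group means and a trend of the prior variance. Fold changes are on that scale, which understates the change of low genes. P values were adjusted by Benjamini-Hochberg over all tested genes, and calls needed both 2-fold and an adjusted p no higher than 0.05. Group means and SDs are of the rescaled FPKM. In simulated data made from the fitted means and spread, the fit returned the sizes of the changes it was given, but most changes of 2-fold were not called.

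Comparisons were hrcC against mock within each label, Atg3bp1 against WT within each condition, and the interaction. In mock, deviations from the group means had correlations of 0.375, 0.102 and 0.315 between same-numbered libraries of the 2 labels. Correlations between libraries with different numbers were not computed, and no label states a shared batch. Whether the numbers pair libraries is therefore not settled, and the main fit used no pairing. After hrcC the correlations were 0.042, 0.43 and 0.105, and over all 18 same-numbered pairs 7 were over 0.1. Averages over labels or conditions and sums of near-identical genes were comparisons chosen after seeing the data. Library values are given for the highest member of each sub-group, every called member and the 3 largest increases and decreases per comparison, and all others by group mean. In the other lists, called genes and up to 3 in each direction, GLK1 and GLK2 are named, and AtG3BP1 checks the labels. TIP2;3, PSBR, LHCB5 and PSAH2 have test values because the text singles them out, which was decided after their values were seen. Members and lists were chosen with earlier results of these data known. Identity, shared stretches and motifs came from the RefSeq annotation of TAIR10.1 (45 of 45 members matched), read with Biopython 1.88. Python 3.11.15 with pandas 2.3.3, numpy 2.4.6 and matplotlib 3.10.9 made the summaries and plots. The alternatives tried were other scalings, pseudocounts and filters, no trend, a replicate block, only the groups compared, a correction for transcript length, leaving out libraries, and other thresholds.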

Additional observations from a re-analysis of the deposited data

How the results depend on the processing

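The exact depth of each library is unknown, groups hold 3 libraries, and reads shared between near-identical copies cannot be assigned, which limits single RBCS, LHCB1 and LHCB2 values most. The libraries labelled Atg3bp1 carried the high AtG3BP1 values, so directions are given between labels and not between genotypes. Of the values recomputed under the alternatives, 1650 were classed as the same. For a single gene this meant the same direction and side of the threshold, and for a count little or no change. For a median it meant a shift of less than 0.243, so medians that changed sign can be among them. Beyond these limits, 34 counts or medians moved. Of the single-gene values, 35 changed sides of the threshold and 13 turned direction. The causes were not tested unless fewer libraries or genes entered the fit.

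The count of members called lower in the response under the label Atg3bp1, 0 in the main analysis, was 1 when only the groups compared were fitted, 1 without the 3 libraries with high factors, 2 with these libraries as a term, and 2 with an unadjusted p and 2-fold. Under the label WT it was also 0, and 1 with quantile normalization, 1 without the 3 libraries, 3 with them as a term and 2 with an unadjusted p. Between the labels in mock it was 5 without the 3 libraries and 4 with them as a term. For the average over conditions, the count between the labels was 2 under either of these. The count for the average response, 1 in the main analysis, was 2 without rescaling, 0 with median-ratio scaling, 2 with quantile normalization, 0 with no filter, 2 with a filter at 5 FPKM, 2 without a trend of the prior variance, 3 without the 3 libraries, 2 with them as a term, 0 with the length trend removed, 2 with an unadjusted p and 0 with families summed. Leaving out 1 library at a time gave 0 to 2. Without the 3 libraries, WT mock is replicate 1 alone, the highest of its group for 39 of 45 members, and is assumed to vary like the other groups, so the calls of that fit are no support. The share of all genes called is given for the main fit only. The counts under the alternatives are therefore no results about the members.

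Without the 3 libraries with high factors, the median log2 value of the members was -0.40 in the response under the label WT, -0.63 between the labels in mock (-0.59 with them as a term), 0.47 for the interaction and -0.41 for the average difference between the labels. The following single-gene values turned direction. LHCB2.1 lay at -0.034 in the response under the label WT and at -0.039 in the average response without these libraries. LHCB2.2 lay at -0.25 in the response under the label WT, and at -0.11 with the term. LHCB1.5 lay at -0.50 and -0.40 (with the term) between the labels in mock and at -0.20 and -0.18 on average. LHCB1.3 lay at -0.13 and -0.075 (with the term) between the labels after hrcC. Other values kept their direction and grew in size without these libraries. LHCB4.3 then lay at -1.59 in the response under the label WT. Between the labels in mock, LHCB2.3 lay at -1.32, LHCB6 at -1.05, PSAO at -1.18 and RBCS2B at -1.39. With WT mock as replicate 1 alone, these values are no support for a difference. Leaving out 1 library at a time, the values ran from -0.10 to 0.52 for LHCB2.2 in the response under the label WT and from -0.13 to 0.49 for LHCB1.3 between the labels after hrcC. Without rescaling, the median of all genes moved to -0.12 between the labels in mock, -0.15 after hrcC and -0.13 on average.

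A replicate block within each treatment, which allows for a pairing by number, called 0 members between the labels in mock, after hrcC, for the interaction and on average, and changed no call. Same-numbered hrcC and mock libraries had correlations from -0.424 to 0.17. With the replicate block over all groups, 0 members were called in each planned comparison and 1 in the average response. This was RBCS3B, at an adjusted p of 0.0367 in limma, and the block changed no other call among the members.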
